A study of Mus musculus with 8 samples.

Results

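The CXC chemokines are small secreted proteins, named for a pair of cysteines separated by 1 other residue, that guide leukocytes along concentration gradients. The 9 genes described here are Cxcl1, Cxcl2, Cxcl3, Cxcl5, Cxcl9, Cxcl10, Cxcl12, Cxcl14 and Cxcl16. They were chosen with earlier results of these data known, and found by symbol through the Entrez identifier of each probe set. All 9 were measured, each by 1 probe set, among 24704 genes. Total RNA of smooth muscle cells from the mouse aorta, which form the contractile layer of its wall, was hybridised to 8 single-colour arrays. In the 4 arrays labelled AdN5 the cells had received an adenovirus for 24 h that the labels describe as overexpressing NFAT5, a transcription factor of the osmotic stress response. In the 4 arrays labelled AdPl, the control genotype, they had received an adenovirus titled AdPl for the same time. Both groups carried a virus and were then given cholesterol at 10 µg/ml for a further 72 h, so no array shows cells without virus or without cholesterol, and the labels name neither a promoter for the virus nor a mouse strain or age. They do not say whether replicates were separate cultures, so the p-values rest on a spread between arrays that could be technical alone.

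Most CXC chemokines act through G protein-coupled receptors on leukocytes. CXCL1, CXCL2, CXCL3 and CXCL5 carry a short glutamate-leucine-arginine motif, bind CXCR2 and attract neutrophils, and their genes are classical targets of NF-kB. CXCL9 and CXCL10 lack the motif, bind CXCR3 on activated T cells and are induced by interferon gamma, CXCL10 also by type I interferon. CXCL12 is a constitutive stromal chemokine that binds CXCR4 and the scavenging receptor ACKR3, CXCL14 is a homeostatic chemokine of epithelia and stroma, and CXCL16 is made as a membrane protein that binds CXCR6 and also takes up oxidised lipoprotein. Smooth muscle cells of the inflamed artery wall can produce several of these ligands.

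In RefSeq's mouse assembly GRCm38.p6, used here for names, gene order and sequences, 6 of the 9 genes lie on chromosome 5, with Cxcl12 on chromosome 6, Cxcl14 on chromosome 13 and Cxcl16 on chromosome 11. Along chromosome 5, Cxcl1 and Cxcl2 are neighbours among protein-coding genes, and Cxcl9 and Cxcl10 have 1 gene, Art3, between them. These pairs combine a shared receptor with closely placed genes, so the 250 bases before the start of each of the 4 genes are printed, as RefSeq gives them for GRCm38.p6, 5′ to 3′ on the gene's own strand. Capitals mark matches to the NF-kB consensus on either strand. The windows are chr5:90903649-90903898 (plus strand) for Cxcl2, chr5:90890995-90891244 (plus strand) for Cxcl1, chr5:92328080-92328329 (minus strand) for Cxcl9 and chr5:92348890-92349139 (minus strand) for Cxcl10.
Cxcl2: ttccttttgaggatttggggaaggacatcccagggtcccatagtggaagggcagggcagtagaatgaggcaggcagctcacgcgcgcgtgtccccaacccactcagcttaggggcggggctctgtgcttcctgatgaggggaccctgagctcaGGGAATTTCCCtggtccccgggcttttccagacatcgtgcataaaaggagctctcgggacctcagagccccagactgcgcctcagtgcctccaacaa
Cxcl1: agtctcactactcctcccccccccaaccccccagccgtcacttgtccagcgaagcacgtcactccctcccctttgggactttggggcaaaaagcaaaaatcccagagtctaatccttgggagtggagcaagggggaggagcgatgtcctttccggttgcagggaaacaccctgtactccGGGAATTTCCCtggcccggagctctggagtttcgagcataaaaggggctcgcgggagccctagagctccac
Cxcl9: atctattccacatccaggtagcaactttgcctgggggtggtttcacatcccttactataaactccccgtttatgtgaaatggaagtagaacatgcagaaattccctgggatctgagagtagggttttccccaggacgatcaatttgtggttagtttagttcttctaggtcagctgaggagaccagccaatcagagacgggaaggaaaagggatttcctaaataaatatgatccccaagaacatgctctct
Cxcl10: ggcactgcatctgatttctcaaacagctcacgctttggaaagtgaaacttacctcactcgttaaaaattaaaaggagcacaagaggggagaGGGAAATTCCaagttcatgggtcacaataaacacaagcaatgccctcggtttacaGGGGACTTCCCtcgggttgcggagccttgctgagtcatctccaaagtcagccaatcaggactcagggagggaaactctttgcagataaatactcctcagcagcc

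Promoter windows were held for 7 of the 9 genes, all but Cxcl5 and Cxcl16. The capitals of Cxcl1 and Cxcl2 spell the same 11-base run, GGGAATTTCCC, which holds 2 overlapping matches to the consensus and begins 71 bases before the start of Cxcl1 and 97 bases before that of Cxcl2. Cxcl3 has the same run, beginning at 73 bases. Cxcl10 has 3 matches, 2 of them overlapping, and the windows of Cxcl9, Cxcl12 and Cxcl14 have 0. Among 32851 windows of the same length in the table, 7.25% held at least 1 match. The short core TGGAAA, which NFAT proteins bind and which is part of the longer NFAT5 element, was found in 18.58% of all windows and among these genes in those of Cxcl2 and Cxcl10, where the Cxcl10 match overlaps one to the interferon response core GAAANNGAA. That core was found in 7.13% of all windows and in those of Cxcl9, Cxcl10 and Cxcl14. The STAT core TTCNNNGAA was found in 7.02% of all windows and in that of Cxcl14. These are matches of letters in 1 window and were not tested as binding sites.

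The values are log2 expression made with RMA, which scales all arrays to the same distribution and pulls differences of dim genes toward 0. A difference is given as a log2 fold change, AdN5 minus AdPl, from limma, with its standard error (SE). A gene is called where its Benjamini-Hochberg adjusted p over all 24704 genes is under 0.05, a threshold that 0.777% of the genes passed (0.364% higher and 0.413% lower in AdN5). The percentile of a gene's level among all genes is given as a rough guide to how dim it is, since probe sets differ in their response. The Nfat5 probe set averaged 6.97 ± 0.072 in the AdN5 arrays and 7.16 ± 0.089 in the AdPl arrays (SD, n = 4 each), a log2 fold change of -0.19 ± 0.078 (SE; adjusted p = 0.360 in limma). It was thus not higher in the arrays labelled as overexpressing the gene. Where its probes lie, and whether they read a viral transcript, could not be read from the sources used here, and every direction below rests on the labels. Of the 7 smooth muscle markers 0 were called. At an unadjusted p under 0.05 in limma there were 2 (28.6%), beside 12.5% of all genes. The 7 markers had 4 fold changes above 0 and 3 below, with a median of 0.013. They ran from Cnn1, encoding calponin (0.33 ± 0.12), to the smooth muscle actin gene Acta2 (-0.30 ± 0.071), which lay at the 99.9 percentile of all genes, while Myocd lay below the median gene. AdPl replicate 3 (-14.2) and AdN5 replicate 4 (-24.7) lay together at one end of the second principal component, with the other arrays at -0.337 and above, so results were also computed without these arrays.

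Of the 9 CXC chemokines, 1 was called: Cxcl9, which rose 1.61-fold in the AdN5 arrays. The other 8 did not pass. Fold changes were above 0 for 6 genes and below 0 for 3, with a median of 0.12 beside 0.0042 for all genes. At an unadjusted p under 0.05 there were 4 (44.4%), Cxcl2, Cxcl9, Cxcl14 and Cxcl16, beside 12.5% of all genes. The AdN5 and AdPl values did not overlap for Cxcl2, Cxcl9, Cxcl12 and Cxcl16 (4 of 9, 44.4%), beside 8.78% of all genes. Of these, 3 were higher in AdN5, as were 4.22% of all genes without overlap, and Cxcl12 was lower, as were 4.56%. Because the 9 genes were chosen with earlier results of these data known, these shares are no test of the family. Among the 6 other CXC ligands 0 were without overlap, and 0 had an unadjusted p under 0.05 in limma.

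**Figure D1:**
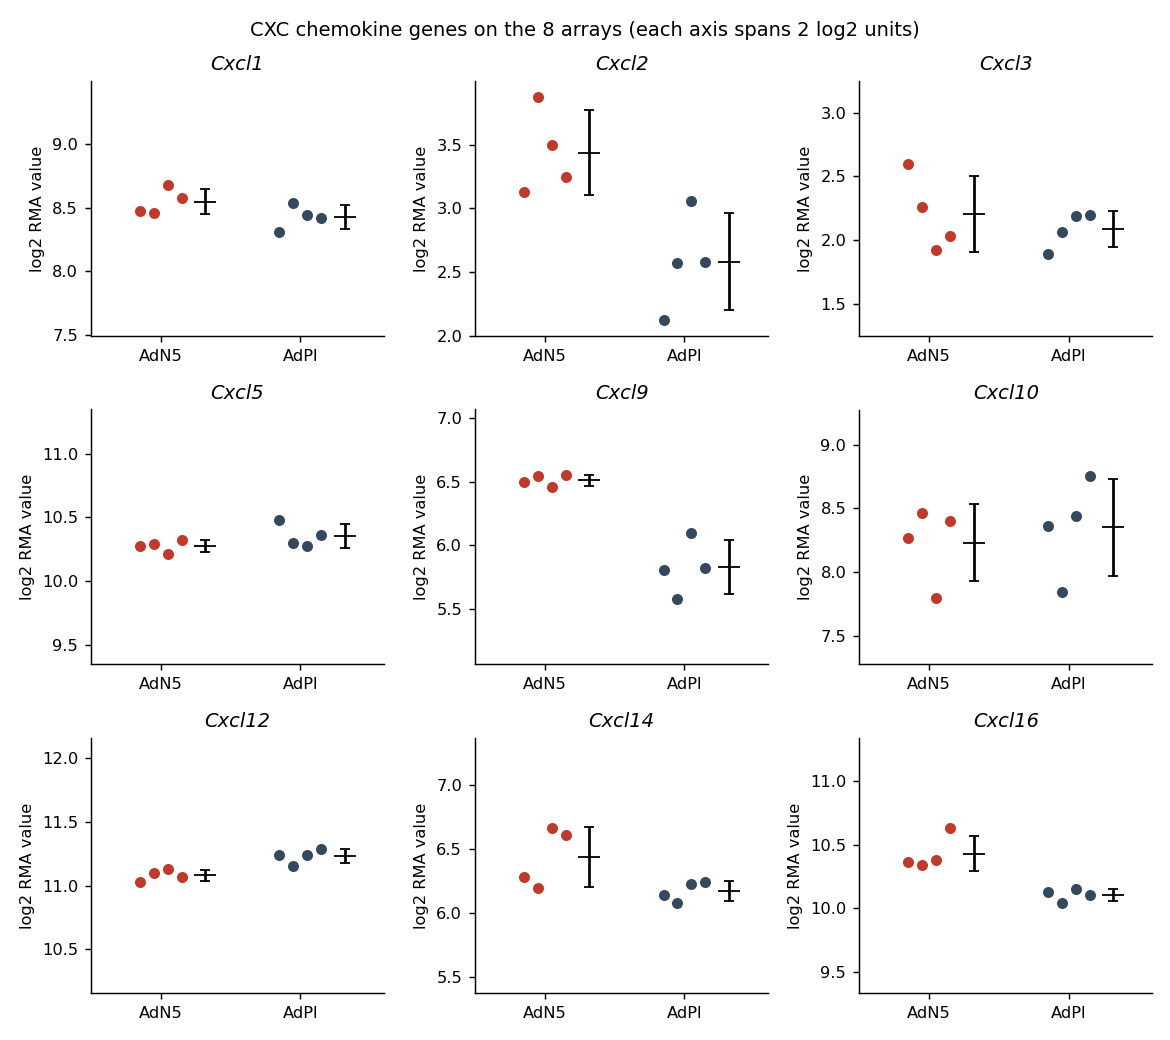
Log2 RMA values of the 9 CXC chemokine genes, with a point for each array, AdN5 on the left and AdPl on the right, and bars for the mean and SD (n = 4 each); every axis spans 2 log2 units. The groups are apart for Cxcl2, Cxcl9, Cxcl12 and Cxcl16, with Cxcl12 the one that is lower in AdN5, and overlap for the other 5 genes.

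Among the ligands of CXCR2, Cxcl2 stood apart in size. CXCL2 is the chemokine first described as macrophage inflammatory protein 2, released early at sites of inflammation. Its values were 3.13, 3.88, 3.50 and 3.25 in AdN5 replicates 1 to 4, against 2.12, 2.57, 3.06 and 2.58 in AdPl replicates 1 to 4. The lowest AdN5 array lay above the highest AdPl array by 0.073, with AdPl replicate 3 closest to the AdN5 arrays. This is a log2 fold change of 0.86 ± 0.21 (SE), or 1.81-fold, and its 95% interval runs from 0.38 to 1.33. It was the largest of the 9 and ranked 18 from the top among all genes, but its adjusted p was 0.127 in limma, since the arrays of each group spread by 0.33 (SD, AdN5) and 0.38 (SD, AdPl). The gene was dim, at the 37.9 percentile of all genes, so the size of its difference is uncertain. With a variance trend and robust estimation, which draws the variance of each gene toward a value that depends on its level, the adjusted p was 0.0284 in limma.

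The other CXCR2 ligands lay close to 0. Cxcl1, whose product is the mouse keratinocyte chemoattractant KC, had 8.48, 8.46, 8.67 and 8.57 in the AdN5 arrays, against 8.31, 8.53, 8.44 and 8.42 in the AdPl arrays. The groups overlapped, through AdPl replicate 2. Its log2 fold change was 0.12 ± 0.083, with a 95% interval from -0.066 to 0.31 (adjusted p = 0.620 in limma), and it was 0.077 without AdN5 replicate 3. Cxcl5, encoding the chemokine LIX, averaged 10.28 ± 0.046 in the AdN5 arrays and 10.35 ± 0.091 in the AdPl arrays (SD, n = 4 each), a log2 fold change of -0.079 with an interval of -0.25 to 0.089, which was -0.037 without AdPl replicate 1. Cxcl3, the third of the closely related GRO-type genes, was at 1.92 to 2.60 in the AdN5 arrays and at 1.90 to 2.20 in the AdPl arrays. That is the 14.5 percentile of all genes, and its log2 fold change of 0.12 ± 0.15 turned to -0.013 without AdN5 replicate 1, its highest array. Nothing firm can be said of Cxcl3 at this level.

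Ligands of the same receptor were also set against each other within arrays. The log2 value of Cxcl2 minus that of Cxcl1 lay between -5.34 and -4.58 in the AdN5 arrays and between -6.19 and -5.38 in the AdPl arrays. The groups were apart by a narrow margin, the difference of the 2 fold changes was 0.74, and the exact two-sided permutation p over the 70 assignments of the arrays was 0.0286, the smallest they can give. Against Cxcl5 the difference was 0.94 (exact permutation p = 0.0286), and against Cxcl3 it was 0.74 (exact permutation p = 0.0571). These belong to 7 pairs of ligands that share a receptor, a set chosen after the values were seen. Adjusted over the 7 pairs the first 2 exact p-values became 0.0667 and the last became 0.100, past the threshold in none of them. With so few arrays a single pair cannot pass this adjustment however far apart its groups lie, so it decides nothing. The pairs with Cxcl2 share its values and are not separate results. The pairs among Cxcl1, Cxcl3 and Cxcl5 had exact permutation p-values of 0.114 to 1.

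Cxcl9, the interferon-gamma-induced ligand of CXCR3, rose in the AdN5 arrays. Its values were 6.50, 6.54, 6.46 and 6.55 in AdN5 replicates 1 to 4, against 5.81, 5.58, 6.10 and 5.83 in AdPl replicates 1 to 4. The 4 AdN5 arrays lay within 0.1 of each other, and all lay above the AdPl arrays, by at least 0.36. The group means were 6.51 ± 0.043 in AdN5 and 5.83 ± 0.21 in AdPl (SD, n = 4 each). This is a log2 fold change of 0.68 ± 0.11 (SE) whose 95% interval runs from 0.45 to 0.92, at an adjusted p of 0.0251 in limma. It ranked 51 from the top by fold change and 90 by p among all genes, and its level lay at the 75.2 percentile. The call was close to the threshold. Of the 8 fits that each dropped 1 array it held in 1, the one without AdPl replicate 3 (log2 fold change 0.77, adjusted p = 0.0212). Without each of the other arrays the adjusted p was between 0.0596 and 0.0918, at log2 fold changes of 0.60 to 0.70. In the 8 fits 56 to 88 of all genes were called, rather than 192. Without AdPl replicate 3 and AdN5 replicate 4 together it was 0.0605, at 0.76.

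Cxcl10, which lies close to Cxcl9 and shares its receptor, did not pass the test. Its values were 8.27, 8.46, 7.79 and 8.40 in AdN5 replicates 1 to 4, against 8.37, 7.84, 8.44 and 8.76 in AdPl replicates 1 to 4. Each group had a single low array, AdN5 replicate 3 and AdPl replicate 2, and the groups overlapped, with AdPl replicate 4 above every AdN5 array. The log2 fold change was -0.12 ± 0.20, with a 95% interval from -0.57 to 0.33 (adjusted p = 0.868 in limma). Its sign rested on single arrays, at 0.024 without AdN5 replicate 3 and 0.014 without AdPl replicate 4. The interval ends below the fold change of Cxcl9, and within arrays the log2 value of Cxcl9 minus that of Cxcl10 was -1.92 to -1.34 in the AdN5 arrays and -2.93 to -2.26 in the AdPl arrays. The 2 fold changes differed by 0.81 (exact permutation p = 0.0286, the smallest possible; 0.0667 adjusted over the 7 pairs).

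**Figure D2:**
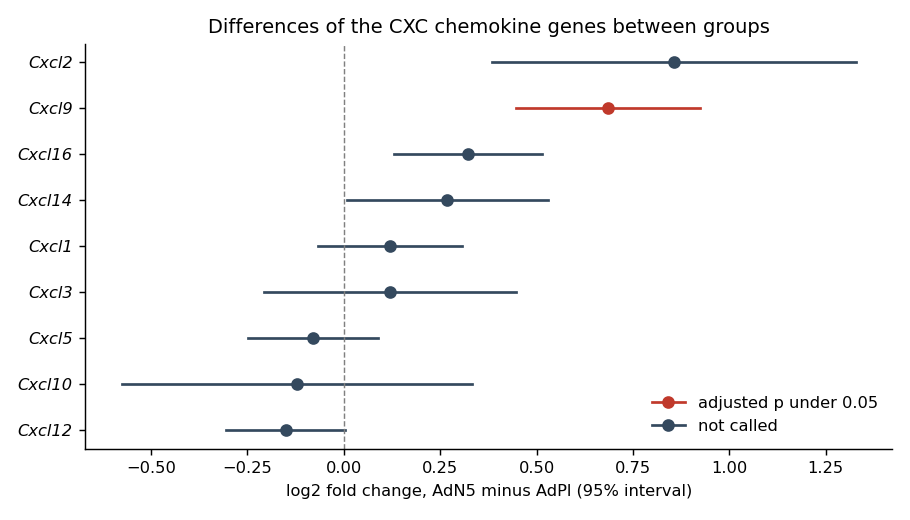
Log2 fold change of each CXC chemokine gene, AdN5 minus AdPl, with its 95% interval from limma (n = 4 each); genes run down the page by fold change. Cxcl9 (0.68), in red, is the one called gene, Cxcl2 (0.86) has a larger fold change with a wider interval, and the intervals of Cxcl1, Cxcl3, Cxcl5, Cxcl10 and Cxcl12 include 0.

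Cxcl12, the stromal chemokine that retains CXCR4-bearing cells, was slightly lower in every AdN5 array. Its values were 11.03, 11.10, 11.13 and 11.06 in the AdN5 arrays, against 11.24, 11.15, 11.24 and 11.29 in the AdPl arrays. The groups were apart by 0.021 only, between AdN5 replicate 3 and AdPl replicate 2. The log2 fold change was -0.15 ± 0.069, with a 95% interval from -0.31 to 0.0043 (adjusted p = 0.413 in limma; 0.0244 with a variance trend and robust estimation). The gene lay at the 99.6 percentile of all genes.

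Cxcl14 and Cxcl16 were both somewhat higher without passing the test. Cxcl14 had 6.28, 6.20, 6.67 and 6.61 in the AdN5 arrays, against 6.14, 6.08, 6.22 and 6.24 in the AdPl arrays. AdN5 replicates 3 and 4 lay above every AdPl array by more than 0.3, whereas AdN5 replicate 2 lay inside the AdPl range. Its log2 fold change was 0.27 ± 0.12 (adjusted p = 0.384 in limma). Cxcl16 had 10.36, 10.34, 10.38 and 10.63 in the AdN5 arrays, against 10.13, 10.04, 10.15 and 10.10 in the AdPl arrays. All AdN5 arrays were above all AdPl arrays, by at least 0.18, and AdN5 replicate 4 was set apart above the rest of its group. The log2 fold change was 0.32 ± 0.086, 1.25-fold, with a 95% interval from 0.13 to 0.51 and an adjusted p of 0.160 in limma (0.00513 with a variance trend and robust estimation). Without AdN5 replicate 4 the log2 fold change was 0.25.

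Macrophages also make CXC chemokines, so their markers were read. All 11 macrophage markers had fold changes above 0 (median 0.26), and 3 were called, 27.3% beside 0.777% of all genes. These were Adgre1, encoding the F4/80 antigen (0.68 ± 0.083), the lysosomal gene Laptm5 (0.53 ± 0.086) and Cd68 (0.52 ± 0.088). Dropping each array in turn kept the call of Adgre1 in 8 fits of 8, that of Laptm5 in 1 and that of Cd68 in 0. The mean of the 11 markers was 5.90 to 6.16 in the AdN5 arrays and 5.63 to 5.76 in the AdPl arrays. The groups were apart, and Cd163 was the one of the 11 below the median gene. The part of macrophages in the values of the CXC chemokines was not tested. In these bulk samples more cells of a type and more RNA per cell cannot be told apart. Fibroblasts make CXC chemokines too, and of their 9 markers 7 had fold changes below 0 (median -0.31). Ly6c1 was the 1 called (11.1%, beside 0.777% of all genes), and it fell (-1.24 ± 0.23). It lay below the median gene, at the 45.4 percentile, so the size of its difference is uncertain. Of the 8 fits that dropped an array, 1 kept its call. The mean of the 9 fibroblast markers was 5.39 to 5.62 in the AdN5 arrays and 5.86 to 5.90 in the AdPl arrays. The part of fibroblasts in the values of the CXC chemokines was not tested. Of the 6 neutrophil, 8 endothelial and 4 measured T lymphocyte markers 0 were called, and their means overlapped between the groups. At an unadjusted p under 0.05 in limma there were 2 (33.3%), 2 (25%) and 0, beside 12.5% of all genes.

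The genes whose profiles over the 8 arrays were most like those of the 2 most variable members were found by the root mean square difference of gene-centred log2 values. For Cxcl9 they were Pgf, encoding placental growth factor (0.079), Ctss, the lysosomal protease cathepsin S (0.083), and Hsd11b1, which regenerates active glucocorticoid (0.098). Cxcl9's own root mean square deviation was 0.37. All 3 genes were called, with log2 fold changes of 0.64 ± 0.10 for Pgf, 0.61 ± 0.10 for Ctss and 0.62 ± 0.089 for Hsd11b1, and all had their highest AdPl value in AdPl replicate 3, as Cxcl9 did. Of the 8 fits that dropped an array, 1 kept the call of Pgf, 1 that of Ctss and 4 that of Hsd11b1. For Cxcl2, whose own deviation was 0.53, the nearest genes were farther off. They were Fbxo5, an inhibitor of the anaphase-promoting complex (0.24), the histone gene H4c1 (0.25) and Ms4a6d, a membrane protein of myeloid cells (0.26). Of these Ms4a6d was called (0.73 ± 0.13, adjusted p = 0.0409 in limma; 1 of the 8 fits that dropped an array kept the call), while Fbxo5 (0.79 ± 0.15) and H4c1 (0.64 ± 0.22) did not pass. Likeness over 8 arrays includes the difference between the groups and says nothing of shared control.

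**Figure D3:**
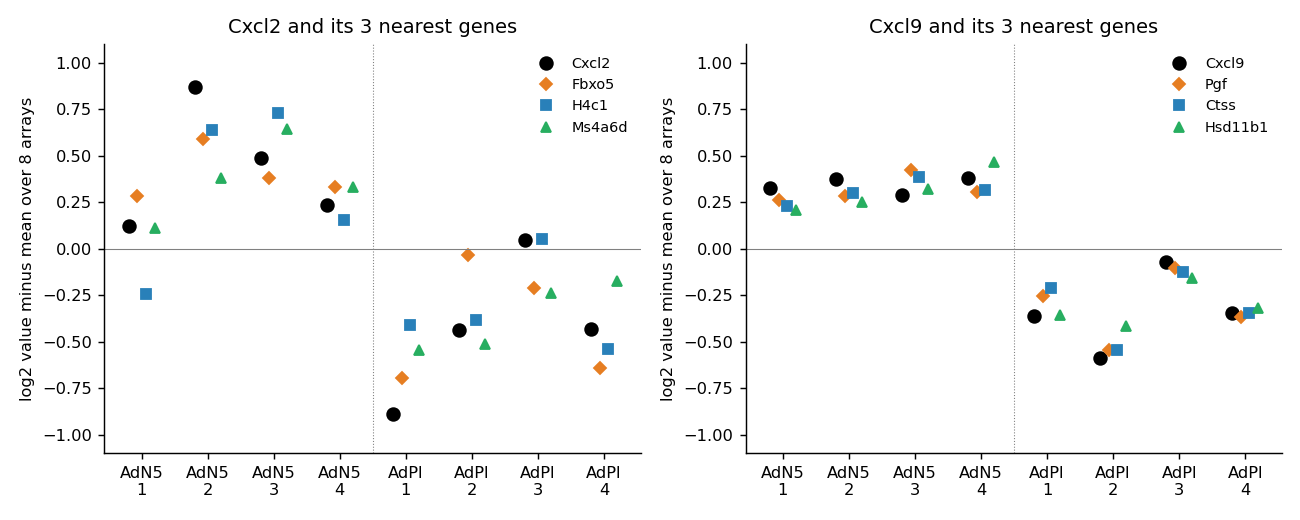
Log2 values of Cxcl2 (left) and Cxcl9 (right), each with the 3 genes nearest to it, after subtracting each gene's mean over the 8 arrays; the dotted line parts the AdN5 from the AdPl arrays. Pgf, Ctss and Hsd11b1 stay close to Cxcl9 on every array, including AdPl replicate 3, while the genes nearest to Cxcl2 scatter around it.

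The remaining CXC ligands and the receptors showed 0 called genes. Of the 6 other ligands, among them the platelet chemokines Pf4 and Ppbp, 0 were called in limma (0 also at an unadjusted p under 0.05), and 5 lay below the median gene. Their fold changes ran from 0.25 ± 0.13 for Cxcl15, a chemokine of the mouse lung, to -0.14 ± 0.11 for Cxcl13, which attracts B cells through CXCR5. Cxcl11, the third ligand of CXCR3, was at -0.11 ± 0.11. Of the 8 receptor genes 0 were called either (0 also at an unadjusted p under 0.05), with fold changes between 0.19 ± 0.096 for Cxcr1 and -0.15 ± 0.14 for Ackr1. The receptors Cxcr2 (0.014 ± 0.13), Cxcr3 (0.18 ± 0.12) and Cxcr6 (-0.026 ± 0.11) were below the median gene, so little can be read from them. Ackr3, the receptor that scavenges CXCL12, was well measured, at 8.33 ± 0.074 in the AdN5 arrays and 8.19 ± 0.051 in the AdPl arrays (SD, n = 4 each). These groups did not overlap, which held for 1 of the 8 receptor genes (12.5%), beside 8.78% of all genes. The log2 fold change of Ackr3 was 0.14 ± 0.073 (adjusted p = 0.472 in limma). Cxcr4 was at 0.033 ± 0.11.

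Among the cytokines that induce these chemokines and their receptors, 1 of 15 genes was called (6.67%, beside 0.777% of all genes). At an unadjusted p under 0.05 in limma there were 7 (46.7%), beside 12.5% of all genes. In 7 (46.7%) the groups did not overlap, beside 8.78% of all genes. Both counts hold higher and lower genes. The called gene was Tnf. It encodes tumour necrosis factor, an inducer of NF-kB, and it rose by a log2 fold change of 0.58 ± 0.094 (adjusted p = 0.0283 in limma). Its call was kept by 1 of the 8 fits that dropped an array. Il1a, encoding interleukin 1 alpha, was at 0.67 ± 0.15 (adjusted p = 0.0897) and headed the list, and Il6 was at 0.34 ± 0.094 without passing. At the low end were Ifng (-0.30 ± 0.17), the inducer of Cxcl9, which was dim at the 13.6 percentile, and the interleukin 1 receptor gene Il1r1 (-0.31 ± 0.092). The median over the list was -0.033.

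Of the genes encoding NF-kB factors, their kinases and inhibitors, 12 of 14 were measured and 0 were called in limma. At an unadjusted p under 0.05 in limma there were 5 (41.7%), beside 12.5% of all genes. Nfkb1 and Chuk were not analysed here. The 5 were Rel (0.34 ± 0.11), encoding the c-Rel subunit, Nfkb2 (0.29 ± 0.089) and the genes of the feedback inhibitors Tnfaip3 (0.31 ± 0.081), Nfkbie (0.31 ± 0.083) and Nfkbia (0.25 ± 0.077), each with AdN5 values above all AdPl values. Rela was likewise without overlap, at 0.098 ± 0.067, which makes 6 of 12 genes (50%) beside 8.78% of all genes. Ikbkb, encoding a kinase of the inhibitors, was lowest at -0.16 ± 0.087. The median of the list was 0.077.

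Interferon signalling genes also had 0 called among the 8 measured. At an unadjusted p under 0.05 in limma there were 2 (25%), beside 12.5% of all genes. Irf7, a transcription factor of the type I interferon response, was at 0.45 ± 0.086 (adjusted p = 0.0537 in limma), Jak2, a kinase of the interferon gamma receptor, at 0.22 ± 0.068 and the kinase gene Tyk2 at -0.10 ± 0.098. Of the 7 genes that set the stability of chemokine transcripts 0 were called (1, or 14.3%, at an unadjusted p under 0.05 in limma). They ran from Khsrp (0.20 ± 0.073) to Zfp36l1 (-0.080 ± 0.070), both of which encode proteins that promote decay. Of the 7 proteases that cleave or shed chemokines 0 were called (1, or 14.3%, at an unadjusted p under 0.05 in limma). Mmp9 (0.31 ± 0.16) and Mmp2 (0.31 ± 0.069), which encode gelatinases, were at the upper end, and Adam10, the main sheddase of CXCL16, was at 0.050 ± 0.074. Dpp4, which removes the first residues of CXCL12, was at -0.13 ± 0.12. It was dim, at the 23.95 percentile, so little can be read from it.

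**Figure D4:**
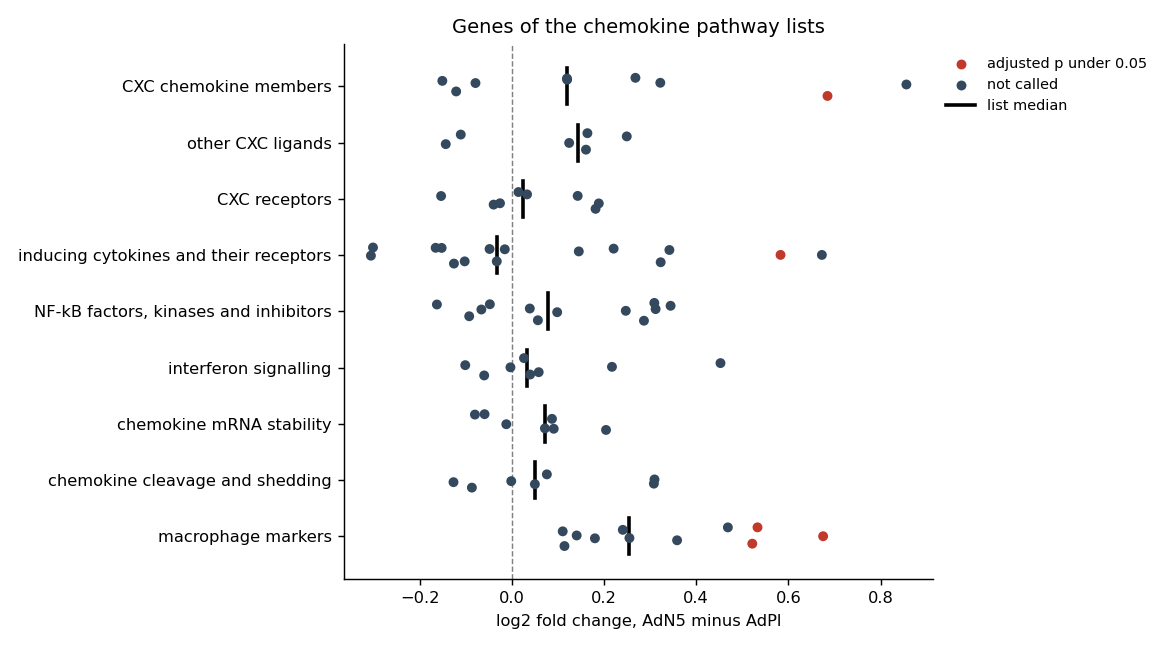
Log2 fold changes, AdN5 minus AdPl, of the genes of each pathway list and of the macrophage markers, a point for each gene, with a bar at the list's median; height within a list is arbitrary. Called genes, in red, are Cxcl9, Tnf and 3 macrophage markers, and the macrophage markers are all above 0.

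Cxcl9 lost its call with the replicate number as a block (adjusted p = 0.121) and in 7 of the 8 fits that dropped an array. It kept it with filters on dim genes, array weights and a variance trend with robust estimation. Renewed quantile normalisation, median centring and averaging of probe sets could hardly change it, because the values were already quantile normalised and each member has 1 probe set. Cxcl2, Cxcl12 and Cxcl16 were each called in 1 setting, the variance trend with robust estimation, under which 781 of 24704 genes passed rather than 192.

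**Figure D5:**
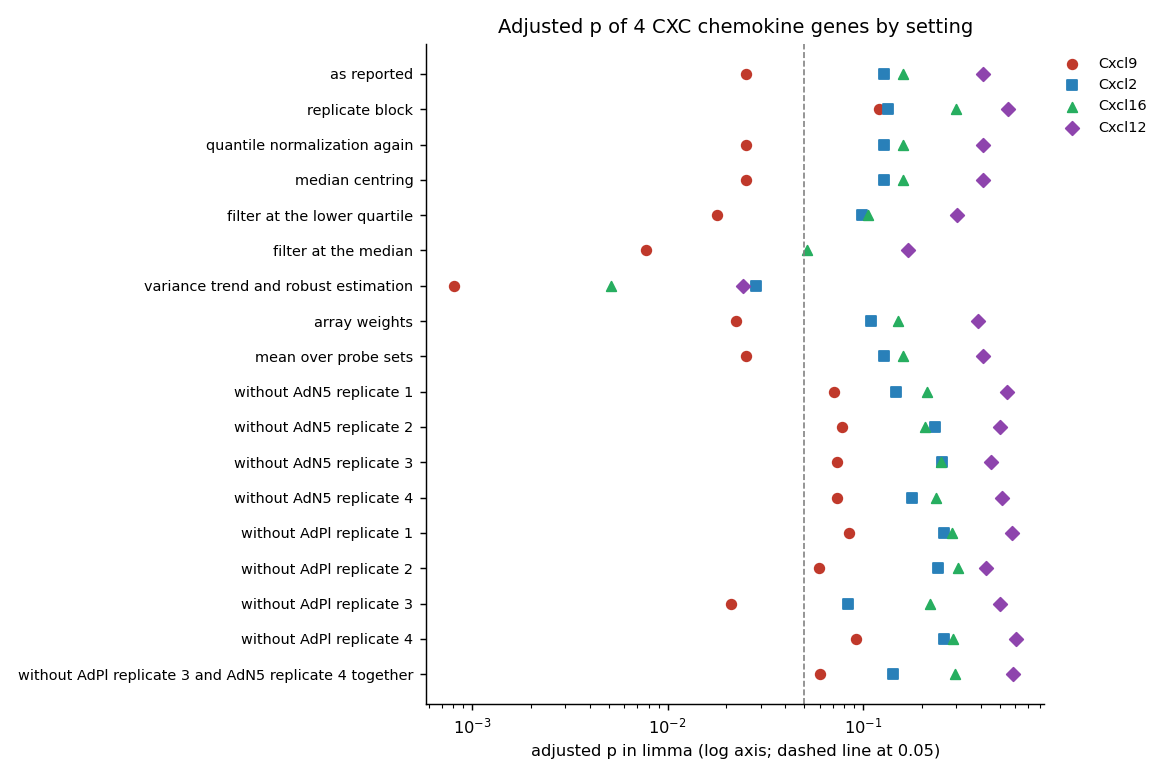
Adjusted p in limma, on a log axis, of Cxcl9, Cxcl2, Cxcl16 and Cxcl12 under each setting, with the threshold of 0.05 as a dashed line. Cxcl9 lies left of the line as reported and to its right in 7 of the 8 fits that dropped an array, and the other genes lie left of it under the variance trend with robust estimation only; Cxcl2 has no point where genes below the median were left out.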

How the data were processed

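The deposited table held log2 values of 25428 probe sets on 8 arrays, made by the authors with RMA, per the submitters' processing notes; no version, build or annotation is given in the sources used here. The supplied probe table gave 24705 probe sets 1 symbol, and the other 723, without a single symbol, were left out. The brightest probe set of a symbol was kept, which left 24704 genes; 24673 Entrez identifiers matched RefSeq's table. Dim genes were not filtered.

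Arrays were grouped by title. AdN5 and AdPl were compared with limma 3.58.1 in R 4.3.3 (lmFit, eBayes, two-sided, no covariates, Benjamini-Hochberg over all genes); the script was tested on simulated data. Python 3.11.15 searched motifs and, with matplotlib 3.10.9, drew figures. The number of arrays limits precision (median SE 0.11). The members and gene lists were chosen with earlier results of these data known. Named genes are the members, Nfat5, called genes and ends of the pathway lists, and the 3 genes nearest to the 2 most variable members; others were named after their values were seen. Alternatives were a replicate block, other normalisation, filters on dim genes, other variance settings, thresholds and arrays left out.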

Additional observations from a re-analysis of the deposited data

Results flagged for a closer look

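Cxcl16 in AdN5 replicate 4 was at 10.63, while the other AdN5 arrays lay between 10.34 and 10.38. The gap to the nearest array was 0.848 of the group's whole range, above the 95% critical value of Dixon's test for 4 samples. It was 1 of 18 groups examined, 9 genes in each of the 2 groups, and chance alone flags about 5% of such groups. The log2 fold change of Cxcl16 was 0.32 with this array and 0.25 without it.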

How the results depend on the processing

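The number of called CXC chemokines was 1 as reported. It was 0 with the replicate number as a block, 0 at an adjusted p under 0.01, 4 with a variance trend and robust estimation (Cxcl2, Cxcl9, Cxcl12 and Cxcl16), 0 without AdPl replicate 3 and AdN5 replicate 4 together (chosen after seeing the data), and 0 to 1 with an array left out. Renewed quantile normalisation, median centring, both filters on dim genes, array weights, the mean over probe sets and a fold of at least 1.5 left it at 1. The fits with the block or without arrays have fewer residual degrees of freedom. The labels give same-numbered arrays no link beyond the number, and whether they shared a culture or a batch is not known. Their deviations from the group means correlated at -0.079 to 0.055 across genes, which does not settle it. The block reduced the calls over all genes from 192 to 14, with Cxcl9 at an adjusted p of 0.121 in limma. Over all genes the calls were 42 at an adjusted p under 0.01, 497 above the median gene and 781 with the variance trend. They were 56 to 88 with an array left out and 30 without the 2 arrays. The sign turned for Cxcl3 without AdN5 replicate 1 (-0.013) and for Cxcl10 without AdN5 replicate 3 (0.024) or AdPl replicate 4 (0.014), and the log2 fold changes of Cxcl3 and Cxcl10 ranged from -0.013 to 0.21 and from -0.29 to 0.024 with an array left out. The other 7 genes kept their sign in every setting run. Cxcl3 was left out by both filters and Cxcl2 by the stricter one. No background level was measured here; Cxcl2 and Cxcl3 lay below the median gene.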
